A study of Homo sapiens with 9 samples.

Results

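Imprinted genes are expressed mainly from the allele inherited from 1 parent. Accessible chromatin was examined at 34 of them that lie outside the IGF2 locus, of 59675 annotated genes in all. The members were fixed by name, and a peak was assigned to a member when it lay in the gene body or within 5 kb of it. The 4 peak lists held 54 such regions after overlapping peaks were merged, of 71597 regions in the series. Positions are given in GRCh38, counted from 1. The genes fall into 6 domains, named after KCNQ1, DLK1 and MEG3, SNRPN, GNAS, PEG10 and PEG3, and 14 further genes. Several members overlap or share a promoter (KCNQ1OT1 lies inside KCNQ1, NNAT inside BLCAP, and SNURF inside SNRPN), so each peak was counted once.

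The cells were HEK293T, an established human embryonic kidney line, left untreated. Open chromatin was mapped by ATAC-seq, which uses a transposase to tag accessible DNA, in 9 libraries. The control group carried a non-targeting guide and had 2 libraries (batches 2 and 3). IGF2BP1 knockout had 3 libraries (batches 1, 2 and 3), and IGF2BP2 knockout and IGF2BP3 knockout had 2 each (batches 2 and 3). Each knockout came from a plasmid transiently expressing 3 guides and GFP, and was represented by 1 clone grown from a sorted GFP+ cell, and effects of the clone and of the genotype cannot be told apart. The IGF2BP proteins are a family of RNA-binding proteins.

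Imprinting rests on differentially methylated control regions, which carry DNA methylation on 1 parental chromosome from the germline or the early embryo onward. Many are promoters of the imprinted transcript, open on the unmethylated allele and closed on the methylated one, and some start a long antisense RNA that silences its neighbours in cis. ZFP57, a zinc-finger protein, binds the motif TGCCGC when it is methylated and helps to keep that methylation in the early embryo.

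The authors deposited 1 list of peak positions per group, without height, score or values per library. Differences between lists therefore have no replicate check and no test, and the read depth behind them is unknown. The control list held 39194 peaks and the knockout lists 50917, 60262 and 44041 (IGF2BP1, IGF2BP2 and IGF2BP3, the order kept throughout), with median widths of 771, 834, 651 and 713 bp from control to IGF2BP3 knockout. Of 5 genes listed as markers that HEK293T cells should have open, PAX2, LHX1, VIM and INA had a peak at a start site or gene end in every list, and NEFH, a neurofilament gene, had none in any. Of 5 genes of other lineages, ALB and PTPRC had no such peak, CD3E had one in the IGF2BP1 knockout list alone, and SPI1 and CD34 had one in all lists. At the targeted genes themselves, IGF2BP3 lacked its start-site peak in the IGF2BP2 and IGF2BP3 knockout lists. The peak lists do not measure the edits.

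Promoter windows of 300 bases from RefSeq (GRCh38.p14) show what the start sites discussed below look like. They are printed 5′ to 3′ along the gene's strand, with TGCCGC, or its reverse complement GCGGCA, in capitals. The first pair was covered by a peak in all 4 lists, the next 3 differed between lists, and the last 3 had no peak in any list. The number after a gene is the rank of its start site, counted from the outermost.
PLAGL1 3, chr6:144008210-144008509 (-): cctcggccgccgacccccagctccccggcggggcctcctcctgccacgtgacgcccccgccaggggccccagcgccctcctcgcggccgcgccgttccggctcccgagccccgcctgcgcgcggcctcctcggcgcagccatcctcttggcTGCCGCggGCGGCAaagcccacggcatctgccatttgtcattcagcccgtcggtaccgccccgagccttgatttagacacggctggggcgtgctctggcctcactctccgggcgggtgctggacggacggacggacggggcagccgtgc
L3MBTL1 2, chr20:43514191-43514490 (+): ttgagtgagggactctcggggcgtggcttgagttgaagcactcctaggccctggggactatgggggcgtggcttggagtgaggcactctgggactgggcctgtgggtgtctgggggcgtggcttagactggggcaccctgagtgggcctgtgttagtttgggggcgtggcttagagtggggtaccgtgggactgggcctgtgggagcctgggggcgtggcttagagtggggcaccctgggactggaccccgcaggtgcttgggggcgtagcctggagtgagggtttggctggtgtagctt
GNAS 1 (NESP), chr20:58839498-58839797 (+): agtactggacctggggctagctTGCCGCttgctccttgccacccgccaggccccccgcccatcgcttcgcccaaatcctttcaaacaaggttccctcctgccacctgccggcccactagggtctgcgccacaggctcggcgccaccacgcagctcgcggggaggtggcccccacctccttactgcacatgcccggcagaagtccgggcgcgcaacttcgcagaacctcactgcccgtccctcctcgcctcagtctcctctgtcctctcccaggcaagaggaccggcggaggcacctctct
GNAS 6 (exon A/B), chr20:58888930-58889229 (+): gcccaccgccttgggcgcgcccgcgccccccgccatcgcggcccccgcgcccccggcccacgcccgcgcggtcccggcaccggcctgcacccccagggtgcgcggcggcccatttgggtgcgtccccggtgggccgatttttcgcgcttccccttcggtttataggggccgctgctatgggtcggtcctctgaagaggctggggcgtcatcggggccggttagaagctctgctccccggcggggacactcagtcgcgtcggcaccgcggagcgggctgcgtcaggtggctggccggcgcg
GRB10 1, chr7:50793404-50793703 (-): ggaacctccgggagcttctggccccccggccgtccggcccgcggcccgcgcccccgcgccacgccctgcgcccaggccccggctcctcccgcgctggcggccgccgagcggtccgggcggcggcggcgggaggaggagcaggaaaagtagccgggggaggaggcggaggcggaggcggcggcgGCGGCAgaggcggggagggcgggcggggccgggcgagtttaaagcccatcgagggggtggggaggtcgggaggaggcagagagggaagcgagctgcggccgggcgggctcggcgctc
GRB10 3, chr7:50782847-50783146 (-): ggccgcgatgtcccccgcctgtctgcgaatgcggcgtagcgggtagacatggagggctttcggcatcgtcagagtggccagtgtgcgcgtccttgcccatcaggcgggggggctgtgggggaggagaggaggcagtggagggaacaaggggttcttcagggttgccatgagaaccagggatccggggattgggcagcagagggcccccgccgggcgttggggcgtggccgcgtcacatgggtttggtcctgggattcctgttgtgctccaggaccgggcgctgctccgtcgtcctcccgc
SNURF 1, chr15:24954737-24955036 (+): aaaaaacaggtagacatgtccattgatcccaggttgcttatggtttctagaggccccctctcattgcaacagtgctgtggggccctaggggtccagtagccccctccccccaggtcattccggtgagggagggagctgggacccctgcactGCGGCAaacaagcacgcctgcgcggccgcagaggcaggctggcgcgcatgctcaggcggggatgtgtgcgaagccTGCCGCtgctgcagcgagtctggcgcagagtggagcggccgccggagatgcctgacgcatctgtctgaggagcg
MEST 5, chr7:130491835-130492134 (+): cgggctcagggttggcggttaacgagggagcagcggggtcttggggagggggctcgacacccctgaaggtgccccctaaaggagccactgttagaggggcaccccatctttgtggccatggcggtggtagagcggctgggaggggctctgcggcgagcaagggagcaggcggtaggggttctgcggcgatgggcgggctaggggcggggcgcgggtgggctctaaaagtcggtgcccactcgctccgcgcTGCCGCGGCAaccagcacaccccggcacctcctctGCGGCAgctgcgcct
The PLAGL1 window has 39 CpG dinucleotides and the L3MBTL1 window 9, both in open control regions, and the closed SNURF window has 18. The GRB10 windows have 44 at the outermost start and 24 at the inner start. In the MEST window, a forward and a reverse copy of the motif overlap.

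Counting the members by list, 23 of 34 had a peak in the gene body or flanks in the control, against 80.3% of 20033 protein-coding genes. The knockout lists had one at 26, 26 and 21 members, against 83.4, 83.9 and 81.3% of genes. A peak within 1 kb of a start site was present at 20 members in the control and at 20, 19 and 17 in the knockouts, where the genome-wide shares were 67.6, 69.6, 69.1 and 68.4%. For 12 members, the reference tables gave no strand, and either end of the gene was used. All 4 lists had such a peak at 16 members (65.2% of genes), and 5 members had it in 1 to 3 lists (6.68% of genes). The other 13 members had it in no list, as did the remaining genes. A gene was counted when any of its starts, or either end, had a peak. GNAS is thus among the 16, although no single start of it was open in all 4 lists. In each list, member peaks made up 0.102, 0.0903, 0.073 and 0.0886% of all peaks, from control to IGF2BP3 knockout.

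No peak in body or flanks was found in any list at 8 members, 23.5% against 13.8% of protein-coding genes. These were DLK1, a non-canonical Notch ligand, SNRPN and SNURF, which encode a splicing protein and a small companion protein, and NDN, a MAGE-family protein. The others were the zinc-finger genes PEG3 and ZIM2, the hydrolase-like gene MEST and the nucleosome assembly gene NAP1L5. Another 5 members had peaks away from their starts alone, namely MEG3, RTL1, MKRN3, NNAT and DIRAS3. The share of all genes with this pattern was not computed.

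Control regions were examined as 23 start sites known to lie in or beside a differentially methylated region. A peak lay within 1 kb of 8 of them in the control list, 8 in the IGF2BP1 knockout, 8 in the IGF2BP2 knockout and 6 in the IGF2BP3 knockout. The share of single start sites open over all genes was not computed, so the counts of this paragraph have no background. The sites open in all 4 lists were 5: the KCNQ1OT1 start, the inner starts of L3MBTL1 and PLAGL1, and the ZDBF2 and ZNF597 starts. In no list was there a peak at 13, namely the starts of SNURF, MEG3, PEG3, NNAT, DIRAS3, NAP1L5, MKRN3 and NDN, the GNAS XL start, the inner starts of MEST and GRB10 and both inner starts of ZNF331. The remaining 5 differed between lists: 3 belonged to GNAS, and the others were PEG10 and MAGEL2. With a window of 2 kb, the counts were 10 in the control and 10, 9 and 6 in the knockouts. That window added the NNAT start in the control, IGF2BP1 knockout and IGF2BP2 knockout lists. It also added the GNAS XL start in the control and IGF2BP1 knockout lists.

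**Figure D1:**
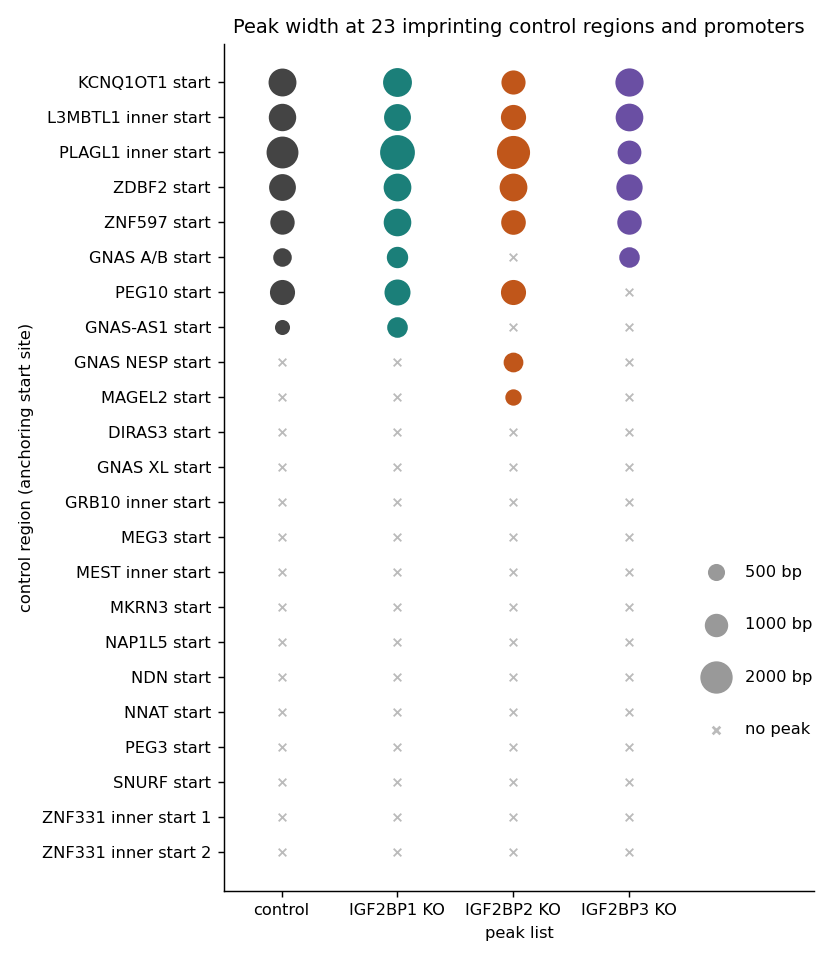
Peak width at 23 start sites of imprinting control regions and imprinted promoters (rows) in the 4 lists (columns). Dot area is proportional to the width in bp of the peaks within 1 kb, and a cross marks no peak; 5 rows are filled in all lists, 13 in none.

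GNAS, on chromosome 20, encodes the stimulatory G-protein alpha subunit and, from alternative starts, transcripts of opposite parental origin: NESP is maternal, and XL, exon A/B and the antisense GNAS-AS1 are paternal. The control list had a peak of 376 bp at the GNAS-AS1 start (58850674 to 58851049) and the IGF2BP1 knockout list one of 759 bp (58850520 to 58851278). Neither of the other knockout lists had a peak there, and their nearest peaks lay 10.3 kb (IGF2BP2) and 37.3 kb (IGF2BP3) from the edge of this region. At the NESP start, the IGF2BP2 knockout list alone had a peak, of 691 bp (58839529 to 58840219), covering 269 of the 300 bases of the NESP window printed above.

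Around exon A/B, the reference lists a pair of starts, and a peak lay within 1 kb of both in the control (602 bp, 58888807 to 58889408), IGF2BP1 knockout (820 bp) and IGF2BP3 knockout (753 bp) lists. In these 3 lists, it spanned the whole window printed above (GNAS 6) and began 0.394, 0.207 and 0.192 kb downstream of the outer of the pair. The IGF2BP2 knockout list had no peak at either start. The next peak downstream was in all 4 lists, with 946, 1052, 858 and 931 bp from control to IGF2BP3 knockout. It lay 1.17 kb beyond the inner of the pair, on the side where the main GNAS transcript begins, although the reference tables used here list no start at it. The IGF2BP2 knockout list thus had a peak at the NESP start and none at the GNAS-AS1 and A/B starts, where the control list had peaks. The lists do not tell the parental alleles apart, and the XL start had no peak in any list. Regions held by the IGF2BP2 knockout list alone made up 15.2% of all regions in the series. Among control peaks at protein-coding start sites within 50 bp of the GNAS-AS1 peak's width, 29.5% were missing from the IGF2BP2 knockout list and 39.8% from the IGF2BP3 knockout list. For peaks like the A/B peak, itself included, the share missing from the IGF2BP2 knockout list was 14.8%. These shares are no tests of the sites, which were picked because their peaks were missing.

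**Figure D2:**
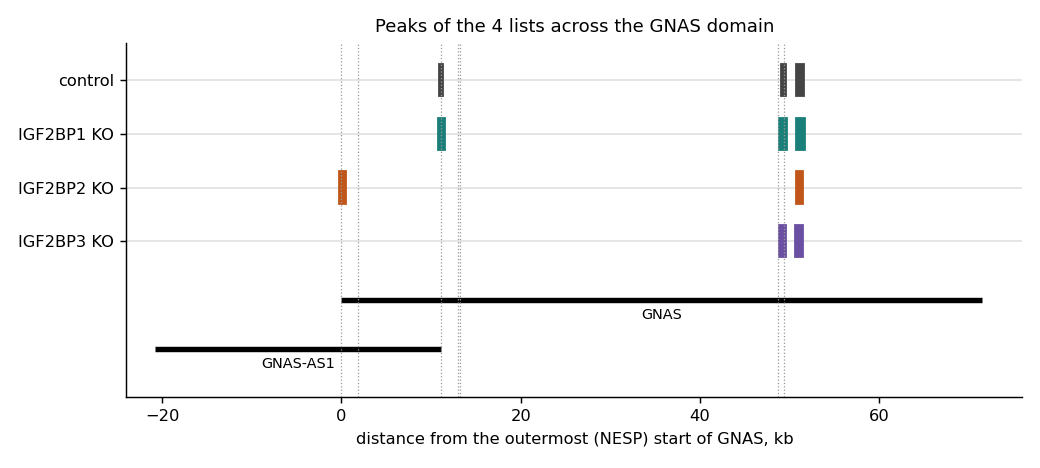
Peaks of the 4 lists across the GNAS domain, drawn to scale against the distance in kb from the outermost (NESP) start; dotted lines mark start sites, and black bars the genes. The IGF2BP2 knockout list has a peak at 0 kb and none at the GNAS-AS1 or exon A/B starts.

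GRB10, on chromosome 7, encodes an adaptor that restrains insulin and IGF receptor signalling. Its outermost start lay under a peak of 1550 bp in the control (50792500 to 50794049), 1648 bp (IGF2BP1 knockout) and 1365 bp (IGF2BP3 knockout). No peak of the IGF2BP2 knockout list was there, and the nearest was 27.3 kb away. Of 590 control peaks at protein-coding start sites with widths within 50 bp of the GRB10 peak, 4 (0.678%) had no overlap in that list. The GRB10 peak is among these 4. The site was picked because its peak was missing, so this share is no test of it. The inner GRB10 start, in the control region, had no peak in any list.

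Inside GRB10, a peak from 50718537 to 50719432 in the control (896 bp) was wider in the IGF2BP1 knockout (1209 bp) and the IGF2BP2 knockout (1073 bp), and missing from the IGF2BP3 knockout. A peak just beyond the 3′ end was found in the control (533 bp) and the IGF2BP1 knockout (644 bp) alone. The remaining one, within the gene from 50632732 to 50633525, was in all lists, with 703, 794, 608 and 514 bp. The IGF2BP2 knockout list had as many other peaks within 250 kb on either side of the outermost start peak as the control, 6 each, and the IGF2BP1 and IGF2BP3 knockout lists had 8 and 4.

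PEG10, a gene derived from a retrotransposon, and SGCE, which encodes epsilon-sarcoglycan, are paternally expressed and start head to head on chromosome 7. Their shared start lay under a single peak of 1164 bp in the control (94655275 to 94656438), 1257 bp in the IGF2BP1 knockout and 1164 bp in the IGF2BP2 knockout. The IGF2BP3 knockout list had no peak there or elsewhere in the 2 genes, and its nearest peak was 144 kb away. Of 1367 control peaks at protein-coding start sites with similar widths, 8 (0.585%) were missing from that list, the PEG10 and SGCE peak among them. This site, too, was picked because its peak was missing, so the share is no test of it. The surroundings were sparse in every list, with 1 other peak within 250 kb on either side in the control, the IGF2BP2 knockout and the IGF2BP3 knockout, and 2 in the IGF2BP1 knockout.

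**Figure D3:**
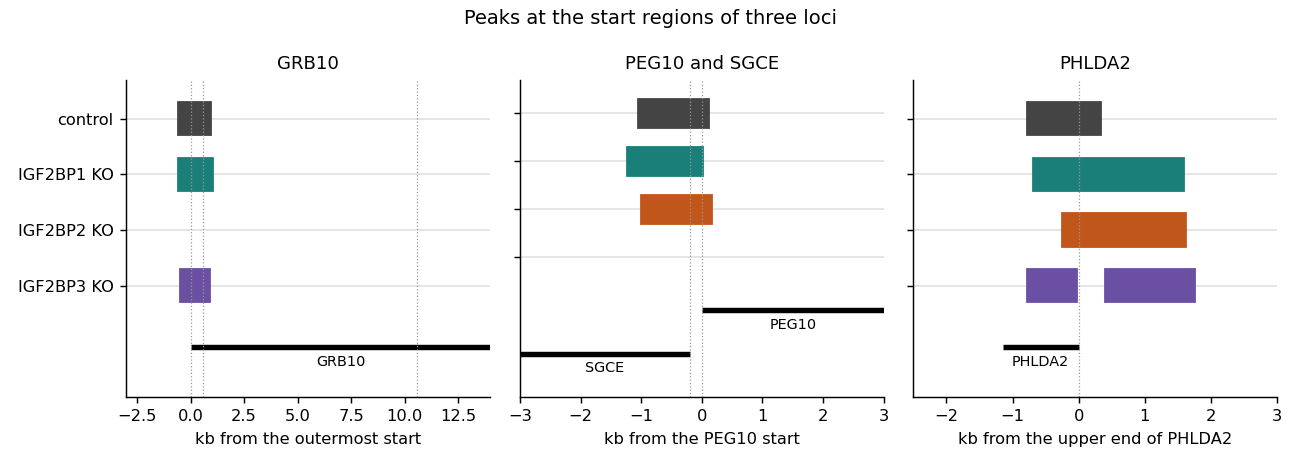
Peaks of the 4 lists (rows) at the starts of GRB10, PEG10 with SGCE, and PHLDA2, to scale in kb from the outermost start of GRB10, the start of PEG10 and the upper end of PHLDA2; dotted lines mark starts, black bars genes. The IGF2BP2 knockout row is empty at GRB10, the IGF2BP3 knockout row is empty at PEG10, and the peaks at PHLDA2 reach further beyond the gene in the knockouts (1.58 to 1.76 kb) than in the control (0.329 kb).

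The start-site calls that differed from the control can be set against the 20033 protein-coding genes as follows. Of the 34 members, 3 are not protein-coding, GNAS-AS1 among them, so the sets compared are not fully alike. A member is called as gaining a start-site peak when a knockout list had one at any of its starts and the control had none. GNAS, with several starts, therefore counts as unchanged in the IGF2BP2 knockout. There, its NESP start had a peak that the control lacked, and its A/B starts lacked the control peak. In the IGF2BP1 knockout, 0 members gained and 0 were missing a start-site peak (2.68 and 0.684% of genes). In the IGF2BP2 knockout, MAGEL2 was the only member counted as gaining one (2.86% of genes). GRB10 and GNAS-AS1 lacked theirs (2 of 34, against 1.29% of genes). In the IGF2BP3 knockout, no member gained one (2.22% of genes), and PEG10, SGCE and GNAS-AS1 lacked theirs (3 of 34, against 1.37% of genes). PEG10 and SGCE share 1 peak, so these 3 members amount to 2 sites. All 3 knockouts were compared with the same control list.

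Counting any peak in body or flanks, 3 members gained one in the IGF2BP1 knockout and 3 in the IGF2BP2 knockout, RTL1, MKRN3 and MAGEL2 by name in both, and 1 in the IGF2BP3 knockout (MAGEL2), against 3.74, 4.43 and 2.73% of genes. No member was left without a peak in the IGF2BP1 knockout or the IGF2BP2 knockout (0.709 and 0.819% of genes), and 3 were in the IGF2BP3 knockout, PEG10, SGCE and GNAS-AS1 (1.72% of genes). At RTL1, the peaks of these lists lay at different places. With the widest peaks of each list alone, the IGF2BP1 knockout kept the peak at RTL1 and not those at MKRN3 and MAGEL2, and the IGF2BP2 knockout kept those at MKRN3 and MAGEL2 and not that at RTL1.

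The KCNQ1 domain on chromosome 11 had 15 regions, 9 of them in all 4 lists. KCNQ1OT1, the paternal antisense RNA that silences the domain in cis, starts in its control region, where the peak was 1461 bp wide in the control and 1571, 1071 and 1497 bp in the knockouts. Widths there did not differ by 1.5-fold. The start of KCNQ1, a potassium channel subunit, was likewise open in all lists, with 1009, 1053, 1387 and 884 bp. CDKN1C, which encodes the cell-cycle inhibitor p57, had peaks of 1144, 1174 and 855 bp at its upper end in the first 3 lists. In the IGF2BP3 knockout, that peak was 769 bp, 0.672 of the control width, and a second peak of 400 bp (2886289 to 2886688) lay just beyond it. SLC22A18, a transporter gene that the reference lists as SLC67A1, had start-site peaks of 1116, 1211, 921 and 1298 bp. Within it, a region from 2912524 to 2913604 had peaks of 1049, 743 and 916 bp in the knockouts and none in the control.

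PHLDA2, a maternally expressed gene that restrains placental growth, had the largest widening among the member regions found in all 4 lists. In the control, 1 peak of 1118 bp ran from 2928632 to 2929749, with 329 bp beyond the upper end of the gene. In the knockouts, peaks covered 1585, 1619 and 1369 bp beyond that end, and the total width was 2275, 1876 and 2126 bp, or 2.03, 1.68 and 1.9 times the control. The IGF2BP3 knockout had 2 separate peaks there (757 and 1369 bp), so its sequence next to the gene end was not covered throughout. In the opposite direction, a region inside KCNQ1 from 2836563 to 2837599 was narrower in every knockout, at 484, 351 and 578 bp against 1035 bp. Another inside KCNQ1, from 2585932 to 2587047, measured 1038 bp in the control and 929, 619 and 666 bp in the knockouts. Nearer the start, a region from 2532600 to 2534042, was 774 bp in the control and 725, 1061 and 1330 bp in the knockouts. A narrow region from 2531333 was held by the control (314 bp) and the IGF2BP1 knockout (482 bp). Single lists held 3 further regions of KCNQ1, of 848 and 701 bp in the IGF2BP1 knockout and 346 bp in the IGF2BP2 knockout.

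PLAGL1, a zinc-finger transcription factor gene on chromosome 6, is paternally expressed from its inner start, which it shares with the non-coding HYMAI. That start held the widest member peak of the control, 1940 bp (144006808 to 144008747), and peaks of 2334 and 2106 bp in the IGF2BP1 and IGF2BP2 knockouts. In the IGF2BP3 knockout, the peak was 1038 bp (144007771 to 144008808), 0.535 of the control width. It kept the start itself, and the whole window printed above, and lacked the part further into the gene. The outermost, biallelic start had similar widths in all lists (1350, 1452, 1465 and 1534 bp). Elsewhere in PLAGL1, a region from 144036162 to 144036920 had peaks of 643, 610 and 622 bp in the knockouts and none in the control. The list of the IGF2BP3 knockout also lacked a narrow control peak of 329 bp near the 3′ end and had a peak of 637 bp (143973086 to 143973722) that no other list held.

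On chromosome 15, the SNRPN domain is expressed from the paternal chromosome, apart from UBE3A. UBE3A, a ubiquitin ligase gene imprinted in neurons, was the only one of its 6 members with a start-site peak in the control, of 1307 bp, and had 1649, 1560 and 1571 bp in the knockouts. MAGEL2, a MAGE-family gene, had a start-site peak of 454 bp (23647608 to 23648061) in the IGF2BP2 knockout alone. Beyond its 3′ end, a region from 23642302 to 23643047 was held by all 3 knockouts (601, 737 and 575 bp) and not by the control, whose nearest peak was 226 kb away. MKRN3, a ring-finger gene, had a peak beyond its 3′ end in the IGF2BP1 knockout (488 bp) and the IGF2BP2 knockout (567 bp). When each list was reduced to its widest peaks, the IGF2BP1 knockout list held neither the region beside MAGEL2 nor the one beside MKRN3, and the IGF2BP2 knockout list no longer held the MAGEL2 start-site peak.

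In the DLK1 and MEG3 domain on chromosome 14, the 87.9 kb between the end of DLK1 and the start of MEG3, which contain the germline control region, held 0 peaks in every list. MEG3, a maternally expressed long non-coding RNA, had 1 peak in its body, away from its start, in all lists (767, 636, 689 and 533 bp). RTL1, derived from a retrotransposon, had a peak of 1074 bp in the IGF2BP1 knockout and, at another place 0.773 kb away, one of 459 bp in the IGF2BP2 knockout.

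Several other promoters varied little. RB1, the retinoblastoma gene, had 1551, 1507, 1563 and 1550 bp at its start, and a region of 591 bp deeper in the gene was held by the IGF2BP2 knockout list alone. ZDBF2, a zinc-finger gene, had 1341, 1442, 1449 and 1287 bp. The peak shared by the adjacent starts of ZNF597, a zinc-finger gene, and NAA60, an acetyltransferase gene, measured 1091, 1428, 1117 and 1099 bp. At L3MBTL1, which encodes a chromatin reader, the inner start in the control region had 1407, 1349, 1172 and 1438 bp and the outermost start 585, 613, 493 and 711 bp. ZNF331 was open at its second start alone (654, 649, 645 and 468 bp), upstream of the closed starts in its control regions. The start sites of these genes differed by less than 1.5-fold from the control in every knockout list.

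BLCAP, a cell-growth gene that hosts the neuronatin gene NNAT in an intron, had start-site peaks of 1351, 1477, 1137 and 1189 bp. A second region lay inside BLCAP, 1.18 kb from NNAT, which itself had no peak at either end. It was 991 bp wide in the control and 925 bp in the IGF2BP1 knockout, measured 259 bp in the IGF2BP2 knockout and had no peak in the IGF2BP3 knockout. DIRAS3, a small GTPase gene, was closed at its start and had a peak beyond its 3′ end in all lists (504, 716, 681 and 574 bp). KCNK9, a maternally expressed potassium channel gene on chromosome 8, had 5 regions, of which 4 were in all lists. The fifth (745 bp in the control, 416 bp in the IGF2BP2 knockout, 577 bp in the IGF2BP3 knockout) was missing from the IGF2BP1 knockout. A region beyond the upper end measured 691, 583, 549 and 457 bp, so that in the IGF2BP3 knockout it was 0.661 of the control width. The narrowest start-site or gene-end peak of a member in the control, apart from GNAS-AS1, was near the upper end of KCNK9 (463 bp, with 455 bp in the IGF2BP1 and 407 bp in the IGF2BP3 knockout list). The overlapping peak of the IGF2BP2 knockout, of 333 bp, lay just outside the 1 kb window. KCNK9, for which the reference tables gave no strand, still counts as having such a peak in all lists, through its lower end.

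Of the 54 regions, 29 (53.7%) were in all 4 lists, against 41.5% of all regions in the series. There were 3 regions in all 3 knockouts and not the control (5.56%, against 6.88% of all regions), those in SLC22A18, PLAGL1 and near MAGEL2 (the last not with the widest peaks alone), and 0 in the control alone (1.98% of all regions). Of 40 control regions, 1, 6 and 7 were missing from the IGF2BP1, IGF2BP2 and IGF2BP3 knockout lists, or 2.5, 15 and 17.5%, against 10.1, 8.59 and 18.4% of all control regions. In the reverse direction, 7 of 46, 9 of 43 and 5 of 38 knockout regions were missing from the control list, against 31.2, 40.3 and 27.3% of all regions of those lists. These differences from the background were not tested, and 24 of the 54 member regions lay at starts or ends, of which 17 were in all lists, against 12 of the 30 elsewhere.

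At the 29 regions in all lists, the median log2 width of the knockout over the control was 0.09, -0.08 and -0.02, against 0.12, 0.0 and -0.03 over all 29686 such regions. Single regions ranged from -1.1 to 1.02 in the IGF2BP1 knockout, from -1.56 to 0.75 in the IGF2BP2 knockout and from -0.9 to 0.93 in the IGF2BP3 knockout. In the IGF2BP1 knockout, 1 region was at least 1.5-fold wider (9.32% of all regions) and 1 at least 1.5-fold narrower (0.758%). In the IGF2BP2 knockout, 1 was wider (3.87%) and 2 narrower (4.78%), and in the IGF2BP3 knockout 2 were wider (3.66%) and 4 narrower (7.3%). At this 1.5-fold limit, PHLDA2 was the region wider in every knockout, and the region at 2836563 inside KCNQ1 the one narrower in every knockout.

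**Figure D4:**
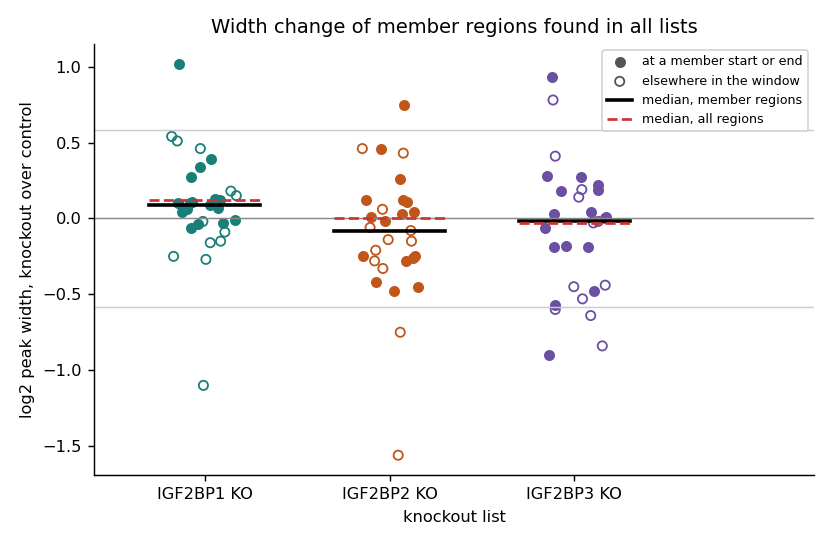
Log2 ratio of peak width, knockout over control (vertical axis), for the 29 member regions found in all 4 lists, by knockout list; filled points lie at a member start or end, open points elsewhere, grey lines mark 1.5-fold. Medians of the member regions (black) are 0.09, -0.08 and -0.02, beside 0.12, 0.0 and -0.03 for all regions (dashed red).

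Base composition and motifs were read from the promoter windows of the reference, which hold 56 different starts of the members. The windows at the 17 starts open in all 4 lists had a median of 28 CpG dinucleotides, those at the 33 starts open in no list a median of 16, and the 6 open in 1 to 3 lists a median of 32. All 35116 windows of the table had a median of 14. Control-region windows did not follow that order. Medians were 17.5 for the 4 open in all lists, 18 for the 11 open in none and 10 for the 3 that differed. TGCCGC, searched on both strands, was in 20 of the 56 member windows, against 16.7% of all windows. It was in 5 of the 17 open in all lists and in 13 of the 33 open in none. Among the control regions with a window, it was present in 1 of 4 open in all lists and 5 of 11 open in none. Neighbouring windows overlap, and a match is not a bound site.

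A second list held 55 genes described as imprinted or lying in the same domains, none of them a member, although HYMAI, TRPM5 and SLC22A18AS start under peaks of PLAGL1, KCNQ1 and SLC22A18 described above. A start-site peak was present at 32 of these in the control (58.2%) and at 33 in each knockout list (60%). The shares of protein-coding genes were 67.6% in the control and 69.6, 69.1 and 68.4% in the knockouts. In all 4 lists, 32 of the 55 had one (65.2% of protein-coding genes), including CASD1 beside SGCE, HYMAI, TRPM5 and ASCL2. There were 21 with none in any list, among them SNHG14, PWRN1, MIMT1, MEG8 and DIO3. The number missing a control start-site peak was 0 in each knockout, against 0.684, 1.29 and 1.37% of protein-coding genes. Each knockout list gained 1, against 2.68, 2.86 and 2.22%. OSBPL5, a lipid transfer gene near PHLDA2, had a start-site peak where the control had none, of 754 bp in the IGF2BP1 knockout and 487 bp for IGF2BP3. SLC22A3, a cation transporter gene, had one of 342 bp in the IGF2BP2 knockout list alone.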

How the data were processed

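ATAC-seq was done on 9 HEK293T libraries in 4 groups taken from the labels. The deposited lists give the start and end of each peak in bp, with no score. The submitters' processing notes name GRCh38, fastp 0.24.1, BWA 0.7.17, MACS2 3.0.0 and bedtools, without their roles. The peak threshold, the transposase offset and how libraries were combined are not given in the sources used here. Read depth is unknown.

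Peaks were set against RefSeq genes and start sites (GRCh38.p14) with Python 3.11.15, numpy 2.4.6 and pandas 2.3.3. All 34 members matched, 22 with start sites in the promoter table, to which the gene's own 5′ end was added. Exons and UTRs were not determined. Shared means at least 1 bp in common. The counting code was tested on simulated lists and recovered all 11 known answers over 1000 genes. The members, gene lists, motifs and naming rule (members whose start-site peak is missing from 1 to 3 lists or differs by 1.5-fold in width, with every member accounted for) were chosen with earlier results of these data known. Inner starts of control regions were picked by rank from the reference tables with the peak lists at hand.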

Additional observations from a re-analysis of the deposited data

Results flagged for a closer look

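At 3 member regions, a control peak was at least 1.5-fold wider in one knockout list and missing from another. These differences were not tested, and the share of all regions with this pattern was not computed. The control peaks were narrow. Of all control peaks, 6.13, 2.07 and 2.9% were no wider than these 3, in the order given next. At the GNAS-AS1 start, a control peak of 376 bp measured 759 bp with IGF2BP1 knocked out, and 0 bp were covered in both other knockout lists. Inside KCNQ1, from 2531333, a control peak of 314 bp measured 482 bp with IGF2BP1 knocked out, and again 0 bp were covered in both other lists. Near the 3′ end of PLAGL1, from 143942041, a control peak of 329 bp measured 623 bp (IGF2BP1 knockout) and 531 bp (IGF2BP2 knockout), and 0 bp were covered with IGF2BP3 knocked out. With the widest peaks of each list alone, the IGF2BP1 knockout no longer held the KCNQ1 region, nor the IGF2BP2 knockout the PLAGL1 region.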

How the results depend on the processing

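Of 115 values recomputed under 9 alternatives, 113 stayed within 1.5-fold (counts) or 0.1 log2 (widths) of the reported value. Only the width changes carry a sign, and 0 reversed. Each count was set against its own reported value, not against the control. Member peaks numbered 40 in the control and 46, 44 and 39 in the knockouts. With the widest peaks of each list alone, they numbered 40 in the control and 39, 33 and 37 in the knockouts, so the order against the control changed. The number of members gaining a start-site peak in the IGF2BP2 knockout moved from 1 to 0 when each list was reduced to its widest peaks, which drops the MAGEL2 peak, and to 2 with a start-site window of 2 kb, which adds RTL1. GRB10 and GNAS-AS1 in the IGF2BP2 knockout, and PEG10, SGCE and GNAS-AS1 in the IGF2BP3 knockout, remained without a start-site peak with windows of 500 bp and 2 kb and with the widest peaks; the 2 kb window added NNAT in the IGF2BP3 knockout. No paired analysis was possible because each group has 1 list, which also prevents leaving out a replicate or comparing within batches. Without depth, a missing peak cannot be told from one under the caller's threshold.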

Other observations

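The windows of the members hold 11 annotated miRNA hairpins, 5 of them in the window of RTL1 and 1 in that of MEST. None lay under a peak in any of the 4 lists. The share over all annotated hairpins was not computed, so this count has no background. MIR770, in MEG3, was the closest to one, 0.563 kb from the control peak in the MEG3 body and 0.739 to 0.796 kb from those of the knockouts. MIR335, inside MEST, was 54.7 kb from the nearest peak in each list.

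Of the other motifs searched on both strands of the 56 member windows, GCCATNTT (YY1) was in 6, against 6.58% of all windows, the NRF1 motif in 6, against 5.78%, and the CTCF motif in 0, against 0.0655%. NRF1 matches were in 1 of 17 windows open in all lists and 5 of 33 open in none.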
